A study of Mus musculus with 12 samples.

Results

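Full-thickness skin of newborn wild-type mice was compared with the epidermis alone, to show which cell types and functions belong to the dermis, the muscle and the other tissue under the epidermis, and which to the epidermis itself. The comparison rests on 6 of the 12 arrays of the study, chosen by their labels: 3 of Krt1+/+ full-thickness skin and 3 of Krt1+/+ epidermis. All animals were on a C57BL/6 background and were taken at P0 (postnatal day 0). Krt1+/+ animals carry both copies of the gene for keratin 1, a keratin of the differentiating layers of the epidermis. The other 6 arrays, 3 each of Krt1-/- skin and Krt1-/- epidermis from animals labelled as lacking the gene, served as a separate set in which the same tissue difference could be read again. The labels do not say from which body site the tissue came, how the epidermis was separated, or whether each array is a separate animal, so the p-values speak for the variation among these samples, part or all of which may be technical.

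Skin is a layered organ. The epidermis is a stratified sheet of keratinocytes in which cells leave the basal layer, build keratin filaments and desmosomes, and end as cornified cells sealed by lipid, with melanocytes, resident T cells and Langerhans cells among them and hair follicles growing down from it. Below it the dermis holds fibroblasts in a matrix of collagen, elastic fibres and proteoglycans, with vessels, nerves, mast cells and macrophages, and beneath lie fat and, in the mouse, a sheet of striated muscle, the panniculus carnosus. Full-thickness skin contains all of these layers, the epidermis included. In such bulk samples fewer cells of a type and less RNA per cell cannot be told apart.

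The values are normalized log2 intensities of 1-colour bead arrays, and a difference of 1 on this scale is a 2-fold difference. The Krt1+/+ arrays had median signals of 93.3 to 102.8 intensity units and detected 17365 to 19931 of 45281 probes above background. Skin arrays correlated with each other at 0.976 to 0.985 over the genes tested and epidermis arrays at 0.972 to 0.986, while skin with epidermis arrays gave 0.821 to 0.859. A gene was tested where a probe had a detection p under 0.05 on at least 3 of the 12 arrays (12099 genes), and it passed where the adjusted p of limma's test, by the Benjamini-Hochberg method over these genes, was under 0.05. Of 1078 genes on the lists used here 850 were tested. A gene of the deeper layers can have entered the test through the skin arrays alone and then had to differ, so counts on lists are descriptions, to be read against the 19.8% of all genes that passed as higher and the 22% that passed as lower in Krt1+/+ skin.

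The arrays also differ in their place in the deposited table. Krt1+/+ epidermis and Krt1-/- skin fill the first 6 sample columns, and Krt1+/+ skin and Krt1-/- epidermis the last 6. Over the 16240 probes undetected on every array, the groups within a column set had mean correlations of -0.0369 and -0.0182, against -0.156 to -0.13 between sets. Within Krt1+/+ the tissue and the column set cannot be told apart. In the Krt1-/- arrays the tissues lie in the opposite sets, so for the main groups of genes below the Krt1-/- value is given too, and the average over both genotypes, in which a set difference that adds to log2 values cancels. A comparison inside a column set sets the skin of a genotype against the epidermis of the other. The signal of Krt1 goes with the label in Krt1-/- skin but less so in the arrays labelled Krt1-/- epidermis: it read 12.12 ± 0.782 (SD, n = 3) in Krt1+/+ skin, 11.36 ± 1.094 in Krt1+/+ epidermis, 7.41 ± 0.845 in Krt1-/- skin and 10.28 ± 0.863 in Krt1-/- epidermis. The groups are used as labelled. Whether labels were exchanged between arrays was not tested, and every Krt1-/- value below is that of arrays so labelled.

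Skin and epidermis differed in 5051 of the 12099 genes tested (41.7%). In skin 2395 genes were higher (19.8%) and 2656 lower (22%), of which 1390 and 1320 differed by over 2-fold. The median over all genes was -0.03, which quantile normalization holds near 0. With each array centred on its median in place of quantile normalization the split was 1805 higher and 3813 lower, and the median -0.25. The large differences, however, lay on the side of skin: 339 genes were over 8-fold higher in skin, and 56 over 8-fold lower. Detection alone separated the tissues for 613 genes seen on all 3 skin arrays and on none of epidermis (503 of them passed as higher) and for 173 seen on all 3 epidermis arrays and on none of skin (168 passed as lower).

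The 15 genes with the largest higher values in skin, among genes detected on all 6 arrays whose values did not overlap, were Myh8, Tpm2, Atp2a1, Acta1, Cpa3, Actn2, Eno3, Dlk1, Myl1, Serpinf1, Col6a1, Lum, Tnni2, Cox6a2 and Hdc. Among these are 9 genes of striated muscle, 3 of connective tissue (Serpinf1, Col6a1 and Lum; a further probe of Serpinf1 gave -0.37), a pair of mast cell genes (Cpa3 and Hdc) and the fetal, imprinted gene Dlk1. The brightest 10 genes seen only in skin read the same way: Sln, Ckm, Ttn, Flnc and Atp1b4 are muscle genes, Cma2, Tpsb2 and Mcpt4 are mast cell proteases, Lox cross-links collagen and elastin, and F13a1 is a coagulation factor made by tissue macrophages. For a gene undetected on all 3 arrays of a tissue the fold is a lower bound, taken from the detection limit of those arrays, and for these 10 genes it ran from at least 52.1-fold for Mcpt4 to at least 205-fold for Sln. All 25 genes also passed as higher in the skin of the Krt1-/- arrays.

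**Figure D1:**
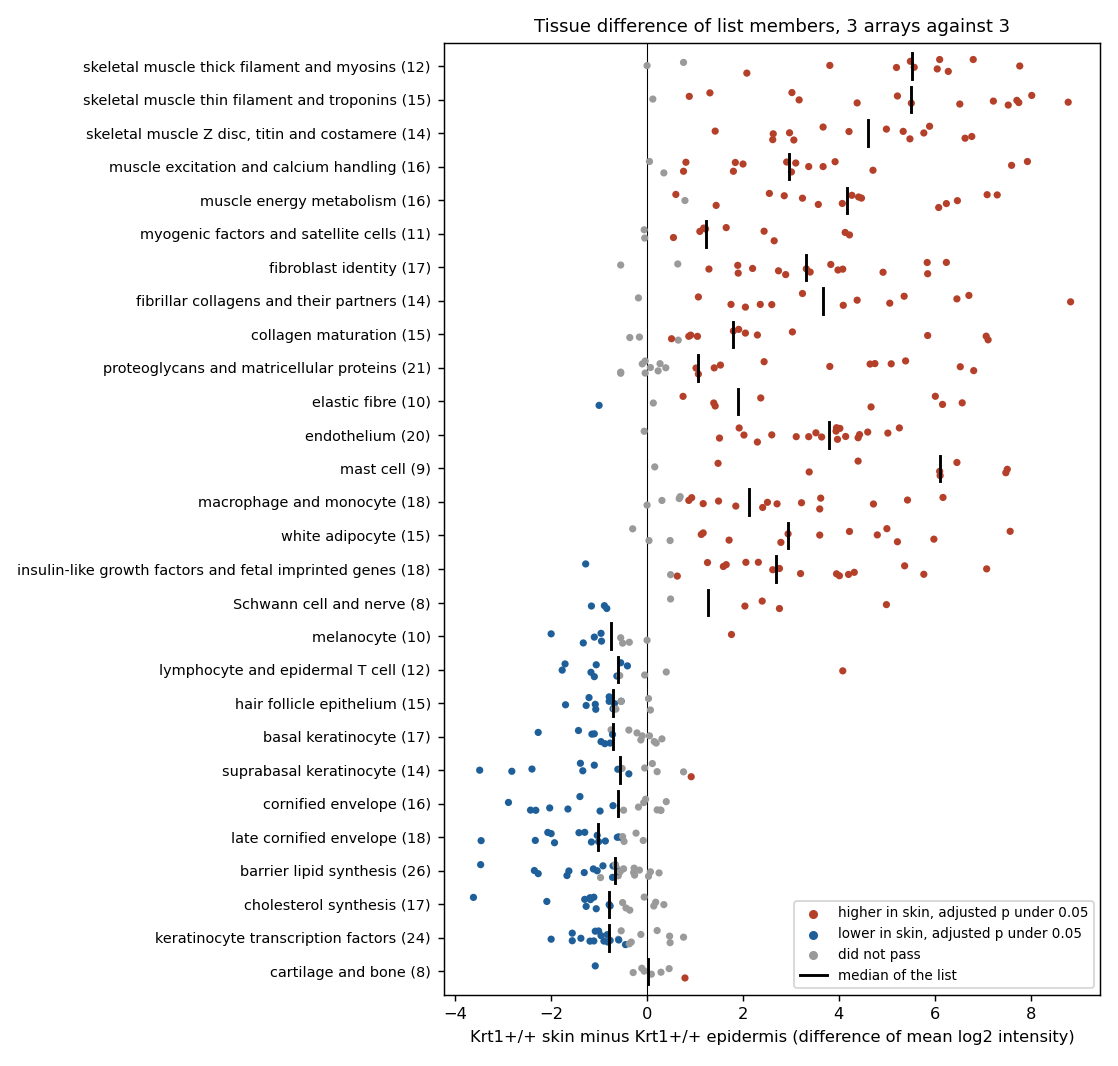
Difference of mean log2 intensity, Krt1+/+ skin minus Krt1+/+ epidermis (x axis), for the tested members of 28 gene lists (y axis, number tested in brackets). Each point is a gene, red where higher and blue where lower in skin past the threshold and grey where it did not pass, and the black bar is the median of the list. Lists of striated muscle, connective tissue, endothelium, mast cells and fat lie to the right, with medians up to 6.10 for mast cells, and lists of the epidermis, pigment cells and T cells lie left of 0 with medians of -0.56 to -1.02.

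Striated muscle had the highest median of the tissues pooled over their lists, although the list of mast cell genes alone lay higher. Of 84 muscle genes tested 76 were higher in skin and 0 lower, against 19.8% and 22% of all genes, with a median of 3.74 (3.62 with genes undetected in epidermis at their bounds). Without background correction 74 were higher and the median was 2.26. On the Krt1-/- arrays 67 of the 76 passed in the same direction (39.5% of all genes passed there, 19.3% as higher and 20.1% as lower) and 0 in the opposite one, and over both genotypes 75 of 84 passed. Epidermis had no detectable signal on any array for 35 of the 84.

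The contractile filaments stood furthest apart. Tnnc2, the calcium-binding troponin of fast fibres, read 13.37, 12.86 and 13.76 on the skin arrays and 4.96, 4.36 and 4.32 on the epidermis arrays. Actc1, an actin of heart and of developing skeletal muscle, read 12.78, 12.25 and 13.01 in skin and 4.92, 4.36 and 4.68 in epidermis. Myh8, the perinatal myosin heavy chain, (probe ILMN_1223735), read 14.63, 14.23 and 14.63 in skin and 7.24, 6.38 and 6.54 in epidermis. In each of these genes every skin array lay far above every epidermis array, and skin replicate 2 was the lowest of the skin arrays. The differences were 8.78 (SE 0.534, adjusted p = 3.3e-08) for Tnnc2, 8.02 (SE 0.377, adjusted p = 7.3e-09) for Actc1 and 7.77 (SE 0.529, adjusted p = 8.3e-08, 219-fold) for Myh8. The signals of Myh8, Acta1 and Myl1 reached 50% or more of the brightest signal on their arrays, so their folds may be compressed. The adult fast myosin gene Myh4 was detected on 1 array of each tissue, with 4.57, 4.23 and 4.45 in skin and 4.68, 4.3 and 4.26 in epidermis, and did not pass (difference 0, adjusted p = 0.996). Myh1, another adult fast myosin, was detected in skin only, at 8.75, 6.82 and 8.85, and was at least 11.01-fold higher there (adjusted p = 9e-05).

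The promoters of Acta1 and Actc1 are shown because both genes were among the clearest muscle differences and because their starts carry sequences known from muscle genes. They are the 250 bases before the transcription start, on the gene's strand, from RefSeq's annotation of GRCm38.p6. Capitals mark the motifs searched on both strands: TATAAA (the TATA box), CAGCTG (an E-box of the kind bound by MyoD), CATTCC (the MCAT motif bound by TEAD factors) and the CArG box bound by serum response factor. Acta1 is at chr8:123894776-123895025 and Actc1 at chr2:114052876-114053125, both on the minus strand.
Acta1: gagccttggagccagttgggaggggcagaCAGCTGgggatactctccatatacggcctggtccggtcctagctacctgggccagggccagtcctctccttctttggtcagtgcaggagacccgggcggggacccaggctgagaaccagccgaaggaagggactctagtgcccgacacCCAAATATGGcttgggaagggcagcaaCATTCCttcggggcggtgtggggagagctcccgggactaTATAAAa
Actc1: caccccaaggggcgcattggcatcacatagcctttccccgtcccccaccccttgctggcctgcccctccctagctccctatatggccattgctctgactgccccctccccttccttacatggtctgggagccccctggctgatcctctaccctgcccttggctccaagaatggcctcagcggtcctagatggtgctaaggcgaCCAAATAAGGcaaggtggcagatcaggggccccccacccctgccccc
In Acta1 the CArG box begins 73 bases, the CATTCC 46 bases and the TATAAA 7 bases before the annotated start. A CAGCTG lies 221 bases before it. Whether transcription begins at the annotated start in these tissues was not tested, so the distances hold for the annotation only. In Actc1 only the CArG box was found, 47 bases before the start. Of the 67 muscle genes higher in both genotypes, 51 had a promoter in the table, with 60 windows of this length in all. CAGCTG was present in 35.0% of these windows, against 12.4% of the 12391 windows of all genes tested and 13% of all 32851 windows. The CArG box was present in 6 of the 60 windows, against 1.28% and 1.47%. CATTCC was found in 18.3%, against 11.3% and 12.6%, and TATAAA in 9 of the 60 windows, against 7.64% and 12.4%. These genes were chosen by their levels, so the shares are descriptions, and a match is not evidence of binding. In other groups of genes higher in both genotypes CAGCTG was present in 7 of 50 dermal, 5 of 15 vessel and 2 of 7 mast cell windows, so its share in muscle windows is close to that in vessel windows. The CArG box was in 0 of these.

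The machinery that couples nerve signals to contraction was also present. Sln, the sarcolipin that restrains the calcium pump, read 12.35, 12.07 and 12.66 in skin and 4.54, 4.29 and 4.45, undetected, in epidermis. Atp2a1, the calcium pump of fast fibres, read 13.5, 12.6 and 13.7 in skin and 5.83, 5.63 and 5.55 in epidermis, a difference of 7.6 (SE 0.452, adjusted p = 3e-08). Ryr1, the calcium release channel, varied most among the skin arrays, at 9.31, 6.87 and 9.6 against 4.95, 4.94 and 4.88 (difference 3.67, SE 0.598, adjusted p = 0.00024). Chrng, the subunit that marks the fetal form of the acetylcholine receptor, was detected in skin alone, at 6.59, 5.23 and 7.13, and was at least 3.11-fold higher there (adjusted p = 0.00097). Musk and Clcn1 did not pass. Of 16 muscle energy genes tested 15 were higher, led by Ckm, the muscle creatine kinase, with 11.98, 10.73 and 11.96 in skin and no detection in epidermis, which makes it at least 117.5-fold higher (adjusted p = 1.6e-08). The oxygen store myoglobin, Mb, was dim, with 5.99, 5.13 and 6.29 in skin against 4.98, 5.06 and 5.02, and did not pass (adjusted p = 0.209).

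Regulators of the muscle fate differed less. Of 11 tested 9 were higher in skin and 2 did not pass, with a median of 1.22. Myf6, the myogenic factor of maturing fibres, read 8.97, 8.22 and 8.64 in skin and was undetected in epidermis, at least 15.28-fold higher (adjusted p = 7.9e-08). Myod1, which commits cells to muscle, read 5.24, 4.83 and 4.65 in skin against 4.42, 4.41 and 4.23, where it was undetected. It was at least 1.17-fold higher (adjusted p = 0.0255) and did not pass on the Krt1-/- arrays (adjusted p = 0.796). Myog, the factor of fusing muscle cells, was higher by 1.1 (adjusted p = 0.00094), and Cdh15, the cadherin of satellite cells, was at least 3.98-fold higher (adjusted p = 1.6e-05).

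The level of muscle genes differed among the skin arrays. Skin replicate 2 was the lowest skin array in 71 of the 76 muscle genes, and the median of these genes was 9.77, 8.56 and 10.02 on skin replicates 1, 2 and 3. In epidermis the same genes had medians of 4.61, 4.5 and 4.49. Skin replicate 2 was also the highest skin array in 68 of the 110 epidermal genes that were lower in skin, and the lowest in 39 of the 81 dermal genes that were higher in skin, against 15 for replicate 1 and 27 for replicate 3. The medians of the dermal genes were close, at 9.8, 9.72 and 9.67. Without replicate 2 again 76 of 84 muscle genes were higher, with a median of 4.33.

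Connective tissue was the second large block. Of 104 dermal genes tested 81 were higher in skin and 2 lower (Adamts1 and Efemp1), with a median of 2.15 (2.09 with undetected genes at their bounds, and 1.21 without background correction). Adamts1 has further probes that gave -0.11 and 0.09. On the Krt1-/- arrays 67 of the 81 passed as higher and 0 as lower, whereas both lower genes passed as higher there. Over both genotypes 84 of 104 were higher and 0 lower.

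Among matrix genes 13 of 14 genes of fibrillar collagens and their partners were higher, Col18a1 not passing. Col1a1, the main chain of type I collagen, read 14.03, 14.06 and 13.44 in skin and 5.24, 4.67 and 5.13 in epidermis. Col6a1, of the microfibrillar type VI collagen, read 12.87, 13.07 and 13.08 against 6.84, 5.91 and 6.14. Col3a1, of the type III collagen that is plentiful in young dermis, read 12, 11.79 and 12.15 against 7.04, 7.06 and 6.66. The skin arrays lay tightly together and did not approach the epidermis arrays in any of these genes. The differences were 8.83 for Col1a1 (SE 0.566, adjusted p = 5.3e-08), where the skin signal is near the top of the array's range, 6.71 for Col6a1 (SE 0.483, adjusted p = 1.4e-07) and 5.06 for Col3a1 (SE 0.473, adjusted p = 1.5e-06). Enzymes that finish collagen followed, with 12 of 15 higher: Lox, detected in skin alone at 11.27, 11.29 and 11.48, was at least 101.5-fold higher, and its relative Loxl1 read 11.79, 11.55 and 11.68 against 4.62, 4.72 and 4.36 (difference 7.11, adjusted p = 9.1e-08).

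Proteoglycans were mixed, with 12 of 21 higher and 9 not passing. Lum, the proteoglycan lumican that spaces collagen fibrils, read 11.29, 11.9 and 11.58 in skin and 4.82, 5.13 and 5.23 in epidermis (92.3-fold, adjusted p = 4e-06). Dcn, the related decorin, was bright in both tissues, at 13.44, 13.39 and 13.56 in skin and 12.08, 12.67 and 12.41 in epidermis, and differed by only 1.07 (SE 0.183, adjusted p = 0.00034). The matricellular genes Tnc, Postn, Ccn1, Ccn2 and Thbs1 did not pass. In the elastic fibre 8 of 10 were higher, led by Mfap4 (6.57, adjusted p = 3.4e-08) and by elastin itself, Eln, at 11.29, 11.04 and 10.72 in skin against 5.06, 4.42 and 5.11 (difference 6.16, SE 0.443, adjusted p = 1.4e-07).

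Genes that mark fibroblasts went the same way, with 15 of 17 higher and 0 lower. Pdgfra, the receptor found on dermal fibroblasts, read 10.8, 10.43 and 11.15 in skin and 5.14, 5.42 and 4.26 in epidermis (57.8-fold, adjusted p = 7.7e-08). Twist2, a transcription factor of the dermal lineage, read 9.49, 9.72 and 8.99 in skin, was undetected in epidermis, and was at least 26.3-fold higher (adjusted p = 1.2e-07). S100a4 and Dpp4 did not pass. Signals of the dermal papilla, the fibroblast cluster that instructs the hair follicle, were detected at lower levels: 11 of 13 were higher, among them Corin (6.99 to 7.57 in skin, undetected in epidermis, at least 6.05-fold, adjusted p = 1.3e-05) and Rspo3, an activator of Wnt signalling (difference 2.14, adjusted p = 2.7e-06).

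**Figure D2:**
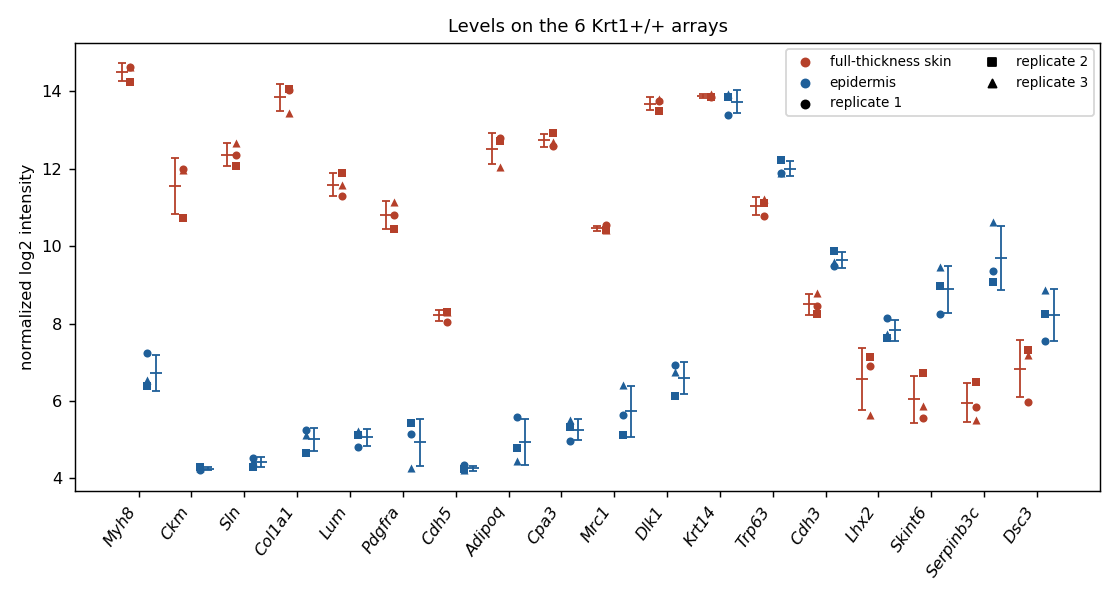
Normalized log2 intensity (y axis) of 18 genes (x axis) on each of the 6 Krt1+/+ arrays, red for full-thickness skin and blue for epidermis, with a symbol for each replicate and bars for mean ± SD. Genes of muscle, matrix, vessel, fat and mast cells stand apart without overlap (Col1a1 at 13.44 to 14.06 in skin and 4.67 to 5.24 in epidermis), Krt14 overlaps (13.84 to 13.93 and 13.39 to 13.93), and the epidermal genes to the right are lower in skin by smaller steps.

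Vessels were visible through the endothelium, where 19 of 20 tested genes were higher in skin with a median of 3.79 (3.55 at the bounds), and 12 were undetected on every epidermis array. Cdh5, the cadherin of endothelial junctions, read 8.05, 8.29 and 8.3 in skin and 4.34, 4.24 and 4.21 in epidermis. Cldn5, the tight junction claudin of endothelium, read 9.56, 9.39 and 10.08 against 4.39, 4.56 and 4.31, and Lyve1, the hyaluronan receptor of lymphatic vessels and of some macrophages, 9.79, 8.89 and 9.76 against 4.47, 4.45 and 4.45. All 3 genes were undetected in epidermis and at least 11.59-fold, 31.95-fold and 27.83-fold higher in skin (adjusted p = 6.3e-09, 2.7e-08 and 1.4e-08). Prox1, the transcription factor of lymphatic endothelium, was detected on 1 array of each tissue and did not pass (adjusted p = 0.83). Smooth muscle gave 6 of 8 genes higher, among them Des, which striated muscle expresses too. Acta2, the smooth muscle actin, read 12.45, 11.97 and 12.22 in skin against 7.15, 5.47 and 6.57 (difference 5.82, adjusted p = 1.1e-07). Tagln and Cnn1 did not pass (adjusted p = 0.0695 and 0.892). On the Krt1-/- arrays 5 of the 8 were higher and 0 lower, with Acta2 at 2.17 (adjusted p = 0.0011) and Smtn, at -0.05, not passing. Of 8 pericyte genes 6 were higher, with a median of 0.95, but on the Krt1-/- arrays 2 were higher and 2 lower, with a median of 0.12. Without background correction the median of all 36 vessel genes went from 2.91 to 1.6, with 31 higher in either case. On the Krt1-/- arrays 25 of the 31 vessel genes higher in Krt1+/+ skin passed in the same direction and 1 in the opposite.

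Fat was present in skin as well. Of 15 genes of white adipocytes 12 were higher, with a median of 2.94 (2.79 at the bounds), and 11 were higher and 1 lower on the Krt1-/- arrays. Over all 24 fat genes the median was 2.33, and 1.29 without background correction. Adipoq, the hormone adiponectin, read 12.79, 12.71 and 12.05 in skin and 5.6, 4.78 and 4.46 in epidermis, a difference of 7.57 (SE 0.708, adjusted p = 1.5e-06). Lpl, the lipase that takes up circulating lipid, read 13.22, 13.05 and 13.04 against 8.28, 7.66 and 7.71 (difference 5.22, adjusted p = 1e-06). Lep, the hormone of filled adipocytes, did not pass (difference 0.04). Of 9 genes listed for brown fat 4 were higher: Cox8b and Cox7a1, which are also expressed in muscle, and Zic1 and Prdm16, both undetected in epidermis. Zic1 was at least 2.8-fold higher (adjusted p = 6.0e-04) and Prdm16 at least 1.31-fold (adjusted p = 0.0188). On the Krt1-/- arrays Zic1 passed (2.55, adjusted p = 8.2e-05) and Prdm16 did not (adjusted p = 0.0616). The uncoupling protein Ucp1, detected in skin alone at 7.54, 6.24 and 7.32, did not pass (at least 5.11-fold, adjusted p = 0.0647). Ucp1 did pass on the Krt1-/- arrays (3.2, adjusted p = 0.0416) and over both genotypes (3.02, adjusted p = 0.00936).

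Of the immune cell lists, that of mast cells had the highest median, 6.10 (5.7 at the bounds). Cpa3, the mast cell carboxypeptidase, read 12.59, 12.92 and 12.7 in skin and 4.96, 5.32 and 5.5 in epidermis. Cma1, a chymase of connective tissue mast cells, read 12.25, 12.57 and 11.5 against 4.74, 4.61 and 4.44, and Hdc, the enzyme that makes histamine, 12.13, 11.56 and 12.13 against 4.73, 6.06 and 5.67. The skin and epidermis values lay far apart on every array. The differences were 7.48 for Cpa3 (SE 0.783, adjusted p = 4.6e-06), 7.51 for Cma1 (SE 0.589, adjusted p = 2.9e-07) and 6.46 for Hdc (SE 0.513, adjusted p = 3.3e-07), and 8 of 9 mast cell genes were higher. Only Kit did not pass, at 9.42, 9.32 and 9.2 against 8.76, 9.24 and 9.46. Kit is the receptor of mast cells and also of melanocytes, which lie in the epidermis. All 8 were also higher in Krt1-/- skin, where the median of the list was 2.93 against 6.10 in Krt1+/+.

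The start of Cpa3 is shown as the gene with the largest mast cell difference among those detected on all 6 arrays, with TATAAA and AGATAA (a motif bound by factors such as GATA2, which mast cells need) in capitals on either strand. It is from the same RefSeq table, at chr3:20242182-20242431 on the minus strand.
Cpa3: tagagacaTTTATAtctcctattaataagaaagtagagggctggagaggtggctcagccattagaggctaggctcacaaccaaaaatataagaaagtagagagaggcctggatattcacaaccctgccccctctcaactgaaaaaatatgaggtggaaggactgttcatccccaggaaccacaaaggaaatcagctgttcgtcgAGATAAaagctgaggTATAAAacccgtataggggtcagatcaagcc
Here TATAAA begins 31 bases and AGATAA 46 bases before the start, and a TATAAA on the opposite strand lies 242 bases before it. Over the 7 windows of the 6 mast cell genes with a promoter, 3 held TATAAA and 2 AGATAA. In all windows of genes tested AGATAA was present in 6.32% (9.99% of all windows) and TATAAA in 7.64% (12.4%). AGATAA was also in 8 of 60 muscle, 5 of 30 epidermal, 1 of 50 dermal and 0 of 15 vessel windows, so matches were not confined to mast cell genes. Gata2 itself was detected only in skin, at 8.83, 8.81 and 8.71, at least 17.2-fold higher (adjusted p = 7.1e-09).

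Macrophage genes were higher in 14 of 18 cases. Mrc1, the mannose receptor, read 10.54, 10.42 and 10.41 in skin and 5.64, 5.13 and 6.42 in epidermis (26.4-fold, adjusted p = 2.2e-08), and the platelet factor Pf4, also made by tissue macrophages, differed by 5.43 (adjusted p = 4.2e-07). Csf1r and Cd14 did not pass. Neutrophil genes were dim, with 3 of 8 higher, Lcn2, Camp and Ctsg. A pair of red cell genes varied widely among the epidermis arrays. Hba-a1, an alpha globin, read 14.25, 14.28 and 13.94 in skin but 8.58, 10.99 and 13.43 on epidermis replicates 1, 2 and 3. Alas2, the haem enzyme of erythroid cells, showed a like spread in epidermis, with 4.88, 5.39 and 8.26, so epidermis replicate 3 was highest in both genes. Hba-a1 (near the top of the array's range in skin) and Alas2 passed in Krt1+/+ (adjusted p = 0.00579 and 0.00675) and did not pass on the Krt1-/- arrays (adjusted p = 0.588 and 0.404).

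Many genes of T cells and pigment cells that live in the epidermis went the other way. Cd3g, a chain of the T cell receptor complex, read 5.14, 5.15 and 5.06 in skin and 6.54, 7.07 and 7.06 in epidermis, a difference of -1.77 (SE 0.312, adjusted p = 0.00044), which was -0.17 inside the last 6 columns (adjusted p = 0.693). Itgae, the integrin that holds T cells to E-cadherin, differed by -1.71 (adjusted p = 0.00012), and Cd3d, Cd3e and Trat1 were lower in skin too. In all, 8 of 12 lymphocyte genes were lower, and the 1 higher gene was Thy1, which fibroblasts express as well. None of the 8 passed on the Krt1-/- arrays, and over both genotypes 8 genes of the list passed as lower. Of the pigment cell genes 5 of 10 were lower: Tyrp1, an enzyme of melanin synthesis, read 8.01, 6.89 and 7.6 in skin and 10.32, 9.41 and 8.77 in epidermis (difference -2, SE 0.4, adjusted p = 0.00117) but did not pass on the Krt1-/- arrays (-0.11, adjusted p = 0.849). The genotype difference itself passed for Tyrp1 (-1.89, adjusted p = 0.0216). Pmel, of the melanosome fibrils, read 8.65, 8.47 and 8.9 against 10.38, 9.66 and 9.28 (difference -1.1, adjusted p = 0.0145). Without skin replicate 2 or epidermis replicate 1 Pmel did not pass (-1 and -0.8, adjusted p = 0.051 and 0.0685), while it was lower in Krt1-/- skin (-1.49, adjusted p = 0.00282). Ednrb, the endothelin receptor of the melanocyte lineage that endothelium also carries, was higher in skin by 1.76 (adjusted p = 9e-05). Merkel cell genes mostly did not pass, with 5 of 6 not passing and Piezo2 higher. Of 8 Langerhans and dendritic cell genes 5 did not pass, 2 were lower (H2-Aa and Epcam) and 1 higher (Mfge8), against 22% and 19.8% of all genes. Over both genotypes 2 genes of this list were higher and 0 lower. Cd207, also listed for these cells, was not tested.

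Nerve genes were divided. Pmp22, a protein of peripheral myelin that fibroblasts make too, read 10.77, 10.57 and 11.42 in skin against 6.01, 6.24 and 5.52 (difference 4.99, adjusted p = 3.4e-08). Stmn2 of growing axons and the nerve growth factor receptor Ngfr were higher by at least 4.15-fold and by 4.12-fold (adjusted p = 4.3e-07 and 6.5e-06). In contrast Sox10, the factor shared by Schwann cells and melanocytes, read 8.07, 7.81 and 8.01 in skin and 8.53, 8.94 and 8.95 in epidermis, and was lower in skin (difference -0.84, adjusted p = 0.0071) as in the Krt1-/- arrays (-1.11, adjusted p = 0.0014). Cartilage and bone genes stayed near background: their median level lay between 4.57 and 4.72 on the skin arrays, and 1 of 8 was higher (Sp7) and 1 lower (Sox9, which the hair follicle also expresses).

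Epidermal genes were lower in skin by smaller and less uniform steps. Of 198 tested 110 were lower and 1 higher (Notch3), against 22% and 19.8% of all genes, with a median of -0.71. With median centring 137 were lower (median -1.11), and 51 were lower when a difference above 1.5-fold was required. Some of the most abundant keratinocyte products did not separate the tissues. Krt14, the basal layer keratin, read 13.85, 13.84 and 13.93 in skin and 13.39, 13.86 and 13.93 in epidermis. Krt10, the suprabasal partner of keratin 1, read 13.82, 14.11 and 14.17 against 14.14, 13.51 and 14.14, and Lor, the loricrin of the cornified envelope, 14.02, 13.98 and 14.37 against 14.26, 13.95 and 14.25. The tissues overlap in all 3 genes, which did not pass (adjusted p = 0.537, 0.695 and 0.919, with 95% intervals of -0.23 to 0.53, -0.31 to 0.52 and -0.4 to 0.34), and all read at least 50% of the brightest probe, where differences are compressed. Krt5, the partner of keratin 14, overlapped too, at 11.03, 12.02 and 10.99 against 10.87, 10.74 and 11.84, and did not pass (adjusted p = 0.706). Over both genotypes it was lower in skin (-1.25, adjusted p = 0.00163).

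Other basal layer genes did differ, with 8 of the 17 on the list lower and 0 higher. Trp63, the master transcription factor of stratified epithelia, read 10.79, 11.11 and 11.22 in skin and 11.88, 12.22 and 11.9 in epidermis, a difference of -0.96 (SE 0.191, adjusted p = 0.00115). Cdh3, the P-cadherin of basal and follicle cells, read 8.45, 8.26 and 8.79 against 9.48, 9.88 and 9.58 (difference -1.15, SE 0.231, adjusted p = 0.00123). Every epidermis array lay above every skin array in both genes, and both were lower in Krt1-/- skin as well (-0.92 and -0.9, adjusted p = 0.00195 and 0.00727). Col17a1, the collagen of hemidesmosomes, and Fermt1 behaved alike in both genotypes. Itga6, the hemidesmosome integrin, had the largest difference of the list, -2.27, on the probe read here, but further probes of the gene gave -0.11 and 0.1.

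Genes of the hair follicle epithelium were lower in skin in 10 of 15 cases. Lhx2, a follicle stem cell factor, read 6.91, 7.13 and 5.65 in skin and 8.14, 7.62 and 7.73 in epidermis (difference -1.27, SE 0.378, adjusted p = 0.0157). Lgr6 and the ectodysplasin adaptor Edaradd were lower as well (differences -1.21 and -1.07, adjusted p = 0.00407 and 0.00036). Shh, the growth signal of the hair bud, read 8.46, 9.14 and 8.54 against 9.87, 9.25 and 9.37, close to each other at the margin (difference -0.79, adjusted p = 0.0207). The call for Lhx2 was lost without skin replicate 3 (-0.81, adjusted p = 0.0747) or epidermis replicate 1 (-1.11, adjusted p = 0.0571). That for Shh was lost without skin replicate 1, skin replicate 3 or epidermis replicate 1 (-0.66, -0.7 and -0.6, adjusted p = 0.0896, 0.0714 and 0.0883), and inside the last 6 columns Shh turned to 0.37 (adjusted p = 0.257) and Lhx2 to -0.28 (adjusted p = 0.595). On the Krt1-/- arrays 7 genes of this list were lower and 0 higher. Keratinocyte transcription factors gave 15 of 24 lower, among them Grhl2 (-1.56, adjusted p = 2.5e-05), Gata3 (-1.56, adjusted p = 0.00029) and Hopx (-2, adjusted p = 0.00078), of which none passed on the Krt1-/- arrays, and Grhl3, Ovol2 and Tfap2a, which did.

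Genes of the upper layers were lower in skin too. Of 18 late cornified envelope genes 14 were lower, with a median of -1.02. Lce6a read 9.25, 10.09 and 9.33 in skin and 11.49, 12.09 and 12.09 in epidermis, a difference of -2.33 (SE 0.295, adjusted p = 2.6e-05). Abca12, the transporter that loads lipid into lamellar granules, read 6.56, 6.74 and 6.36 against 9.71, 10.13 and 10.23 (difference -3.47, SE 0.201, adjusted p = 2.6e-08), and Dsc1, the desmocollin of upper layers, 5.54, 6 and 5.82 against 8.96, 9.32 and 9.54 (difference -3.49, adjusted p = 8.2e-06). The other genotype differed: on the Krt1-/- arrays Lce6a was lower (-0.84, adjusted p = 0.0362), Abca12 and Dsc1 did not pass (0.28 and 0.17), and of the late cornified envelope genes 2 were lower and 6 higher. The small proline-rich and late cornified envelope genes have close copies that 1 probe may not separate.

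Over all epidermal genes the Krt1-/- arrays gave a different picture from that for muscle and dermis. Of the 110 lower genes 30 passed as lower there (20.1% of all genes did) and 16 as higher. Over both genotypes 111 of the 198 were lower, but tissues of unlike genotype compared inside the first 6 columns gave 40 lower and 40 higher (median -0.02), and inside the last 6 columns 123 lower and 5 higher (median -0.96). For muscle the same readings gave 71 and 74 higher of 84, and for dermis 72 and 83 of 104. Over all 12099 genes they gave 1675 higher and 1829 lower in the first 6 columns, and 2525 and 2508 in the last 6. Of the 2395 genes higher in Krt1+/+ skin 1108 (46.3%) were also higher in Krt1-/- skin, which is 47.3% of the 2341 higher there, and 317 were lower. Of the 2656 lower genes 568 (21.4%) were also lower, which is 23.3% of the 2435 lower there, and 640 were higher. Among differences over 8-fold, 330 of 339 higher genes passed in the same direction and 3 of 56 lower genes did. The difference between the genotypes was itself past the threshold for 3739 genes (30.9%). Genotype, column set and a possible exchange of labels cannot be told apart in these values.

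**Figure D3:**
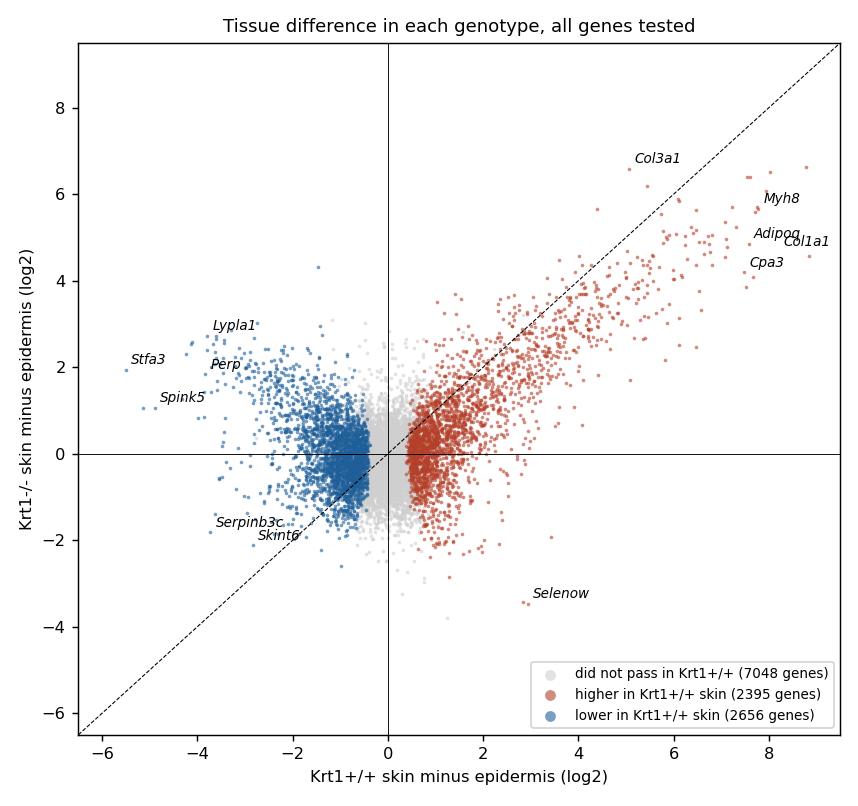
Difference of skin minus epidermis on the log2 scale in Krt1+/+ (x axis) and in Krt1-/- (y axis) for the 12099 genes tested, each a point, red and blue where it passed as higher or lower in Krt1+/+ skin and grey where it did not. The dashed line marks equal differences. Genes far to the right lie near the line or somewhat below it, such as Myh8 at 7.77 and 5.66, whereas many genes far to the left lie above 0 on the y axis, such as Spink5 at -4.9 and 1.06.

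The 15 largest falls in Krt1+/+ skin among genes detected on all 6 arrays show this gene by gene. They were Stfa3, Cstdc6, Spink5, Wfdc21, Rpl22l1, Anxa1, Mfsd14b, Perp, Cct5, Lypla1, Serpinb3c, Nkiras1, Pcna, Il1f8 and Nono. Spink5, the protease inhibitor of the outer epidermis, read 6.6, 6.63 and 6.65 in Krt1+/+ skin and 11.48, 11.55 and 11.54 in Krt1+/+ epidermis, a difference of -4.9 (SE 0.295, adjusted p = 3.2e-08), but on the Krt1-/- arrays the difference was 1.06 (adjusted p = 0.0118). Perp, a desmosome protein, read 4.95, 4.66 and 4.64 against 8.19, 8.81 and 8.78 (-3.84, adjusted p = 6.5e-08), and 1.84 on the Krt1-/- arrays (adjusted p = 0.0001). The list also holds genes that every cell uses, such as Pcna of DNA replication, the ribosomal gene Rpl22l1 and the chaperonin subunit Cct5. Serpinb3c and Il1f8 alone of the 15 were lower in the skin of both genotypes, and 13 were higher in Krt1-/- skin. The 10 brightest genes seen only in epidermis (Cd24a, Psmc6, Slc30a4, Rab27b, Ralgapa1, Fig4, Copb1, Gopc, Xrn2 and Slc35f5) were all higher in Krt1-/- skin, although Cd24a, a glycoprotein of epithelial progenitors, was at least 10.2-fold lower in Krt1+/+ skin (adjusted p = 1.8e-07).

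The genes that were lower in the skin of both genotypes without overlap in either form a narrower epidermal list. The 20 largest by their average were Serpinb3c, Il1f8, Skint6, Lipn, Tprg, Serpinb2, Tmem45a, Skint9, Sdr9c7, Gsdmc, Serpinb3a, Trbv13-2, Mcoln3, Dsc3, Tnfrsf18, Ranbp1, Flg2, Hsbp1l1, Ociad2 and Exoc1. Skint6, of the family of keratinocyte proteins that select epidermal gamma-delta T cells in mice, read 5.56, 6.72 and 5.86 in skin and 8.25, 8.97 and 9.45 in epidermis (difference -2.84, SE 0.403, adjusted p = 7.3e-05). Serpinb3c, a serpin of the squamous cell antigen family, read 5.85, 6.5 and 5.52 against 9.36, 9.08 and 10.63 (difference -3.73, SE 0.472, adjusted p = 2.6e-05). Dsc3, the desmocollin of lower layers, read 5.98, 7.33 and 7.19 against 7.55, 8.25 and 8.88 (difference -1.4, SE 0.382, adjusted p = 0.00952). The tissues did not overlap in any of these genes, but in Dsc3 the highest skin array, replicate 2, lay close to the lowest epidermis array, replicate 1. In Krt1-/- Skint6 differed by -2.12, Serpinb3c by -1.82 and Dsc3 by -2.23 (adjusted p = 0.00113, 0.00798 and 0.00053). Sdr9c7 and Lipn, of the lipid barrier and of late keratinocytes, were lower by -2.35 and -2.95 in Krt1+/+ (adjusted p = 3.2e-05 and 9e-06) and by -1.54 and -1.37 in Krt1-/- (adjusted p = 0.00143 and 0.00531). Trbv13-2 is a variable segment of the T cell receptor beta chain. Dsc3 lost its call without skin replicate 1 (-0.97, adjusted p = 0.0519) and Skint9 without skin replicate 3 (-1.7, adjusted p = 0.0541). This list was drawn by its values in both genotypes, so its likeness between them is not a test. When tissues of unlike genotype were compared inside a column set, Lipn and Serpinb2 were not lower in the first 6 columns (0.31 and 0.93, adjusted p = 0.522 and 0.209), nor Skint9 in the last 6 (0.44, adjusted p = 0.569). In the first 6 columns Serpinb3c, Il1f8, Tprg, Tmem45a, Sdr9c7, Serpinb3a, Trbv13-2 and Dsc3 were below 0 without passing, from -0.19 for Sdr9c7 to -1.04 for Dsc3, and Skint6 passed.

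The starts of Serpinb3c and Sdr9c7 are shown as members of that list with a known epidermal role, with TATAAA and TGANTCA (the AP-1 motif) in capitals where found. They are at chr1:107278372-107278621 on the minus strand and at chr10:127898285-127898534 on the plus strand, from the same table.
Serpinb3c: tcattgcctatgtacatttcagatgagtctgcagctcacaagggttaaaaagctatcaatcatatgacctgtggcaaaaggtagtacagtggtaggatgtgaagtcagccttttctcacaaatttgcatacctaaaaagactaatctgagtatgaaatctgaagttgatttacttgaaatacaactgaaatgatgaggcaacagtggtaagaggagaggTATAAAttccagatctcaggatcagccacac
Sdr9c7: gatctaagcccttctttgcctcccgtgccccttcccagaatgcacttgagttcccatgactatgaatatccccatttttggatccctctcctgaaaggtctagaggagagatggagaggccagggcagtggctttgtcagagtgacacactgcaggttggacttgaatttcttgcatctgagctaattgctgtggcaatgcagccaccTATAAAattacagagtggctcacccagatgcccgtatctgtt
Each holds a TATAAA, 31 bases before the start in Serpinb3c and 42 in Sdr9c7, and no TGANTCA in this window. Of the 30 epidermal list genes lower in both genotypes 25 had a promoter, with 30 windows. TATAAA was present in 26.7% of these windows, against 7.64% of the windows of all genes tested and 12.4% of all windows, and TGANTCA in 16.7%, against 5.08% and 6.75%. These shares are descriptions of genes chosen by their levels.

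**Figure D4:**
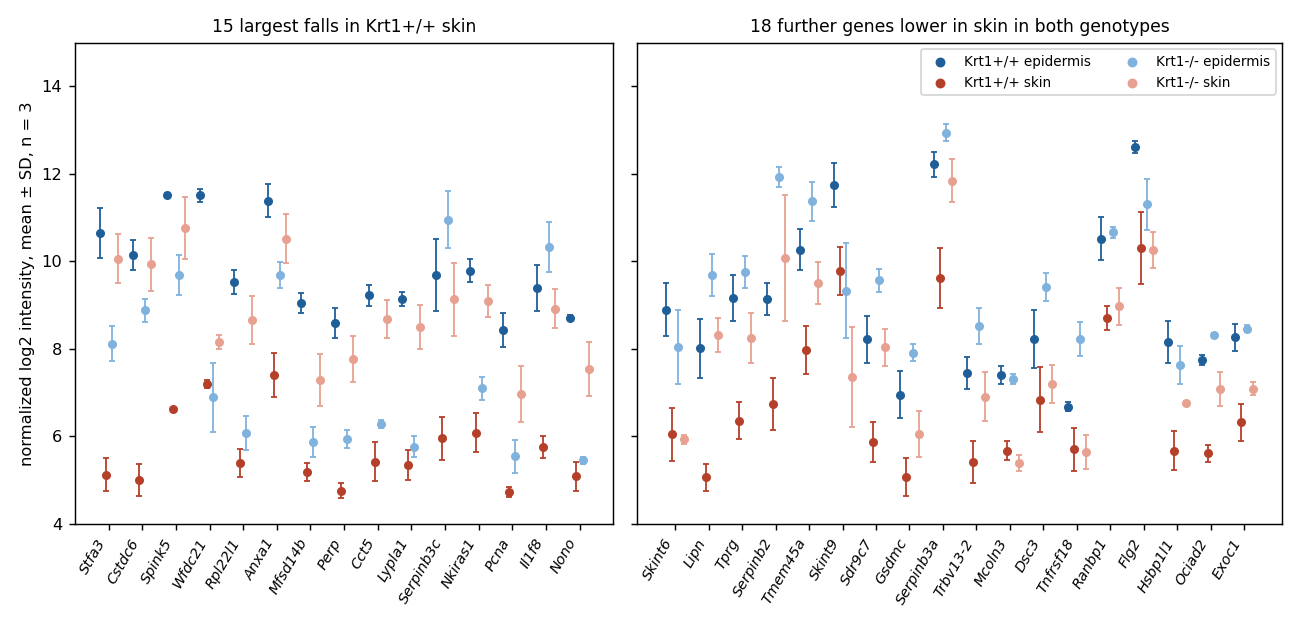
Normalized log2 intensity (y axis, mean ± SD, n = 3 arrays) in the 4 groups of arrays for the 15 largest falls in Krt1+/+ skin (left) and for 18 further genes lower in the skin of both genotypes (right). Dark symbols are Krt1+/+ and pale symbols Krt1-/-, blue for epidermis and red for skin. At left the Krt1+/+ skin and Krt1-/- epidermis symbols are mostly the lower pair, as for Lypla1 with 5.34 and 5.76 against 9.14 and 8.5 in Krt1+/+ epidermis and Krt1-/- skin, and at right the skin symbols are below the epidermis symbols of the same genotype.

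In several gene families some members were higher in skin and others lower. Of 87 family genes tested 27 were higher (31%) and 20 lower (23%), against 19.8% and 22% of all genes, with a median of 0. The share of lower genes was thus near that of all genes. On the Krt1-/- arrays 23 of the 27 higher genes passed as higher and 2 as lower. Of the 20 lower genes 2 passed there as lower and 2 as higher. Among claudins Cldn5, Cldn11, Cldn15, Cldn10 and Cldn2 were higher in skin, and Cldn1, Cldn23 and Cldn12 lower. On the Krt1-/- arrays 5 claudin genes passed as higher and 0 as lower. Cldn1, the claudin whose loss breaks the water barrier in mice, read 8.94, 9.58 and 9.19 in skin and 10.54, 11.12 and 11.02 in epidermis (difference -1.66, SE 0.205, adjusted p = 2.1e-05). Among cadherins Cdh5 of endothelium and Cdh15 of muscle were higher and Cdh1 and Cdh3 of epithelium lower. Cdh1, the E-cadherin, read 9.36, 9.36 and 9.42 against 10.61, 10.7 and 10.72 (difference -1.3, SE 0.144, adjusted p = 7.9e-06), but was higher in Krt1-/- skin (0.48, adjusted p = 0.0168).

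In the basement membrane family Lama2, the laminin chain around muscle fibres, was at least 6.53-fold higher in skin (adjusted p = 1.3e-07) and Lamb3, a chain of the epidermal laminin-332, was lower (-0.72, adjusted p = 0.0447). Gap junction genes gave Gja5 and Gja4 of vessels higher, by at least 6.33-fold for Gja5 (adjusted p = 3.2e-08), and Gjb6 and Gjb2 of epithelium lower (-1.73 and -0.6, adjusted p = 9.5e-05 and 0.0412). On the Krt1-/- arrays 2 gap junction genes passed as higher and 0 as lower. Intermediate filaments gave Des of muscle and Vim of mesenchyme higher by 5.77 and 3.83 (adjusted p = 2.4e-08 and 7.6e-09), Nes, undetected in epidermis, at least 5.81-fold higher (adjusted p = 5.5e-07), and the stress-inducible Krt6b and Krt16 lower. Vim read 11.69, 11.63 and 11.61 in skin and 7.51, 7.71 and 8.2 in epidermis. Regulators of the mesenchymal state split likewise, with Zeb1, Zeb2, Twist1, Twist2 and Snai1 higher (Zeb1 by 4.2, adjusted p = 1.9e-08) and the epithelial splicing factor Esrp1 lower (-1.31, adjusted p = 0.00023). Snai2, often grouped with the mesenchymal factors, was lower in skin (-1.14, adjusted p = 0.00346). On the Krt1-/- arrays 7 genes of the list with these regulators passed as higher and 0 as lower.

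**Figure D5:**
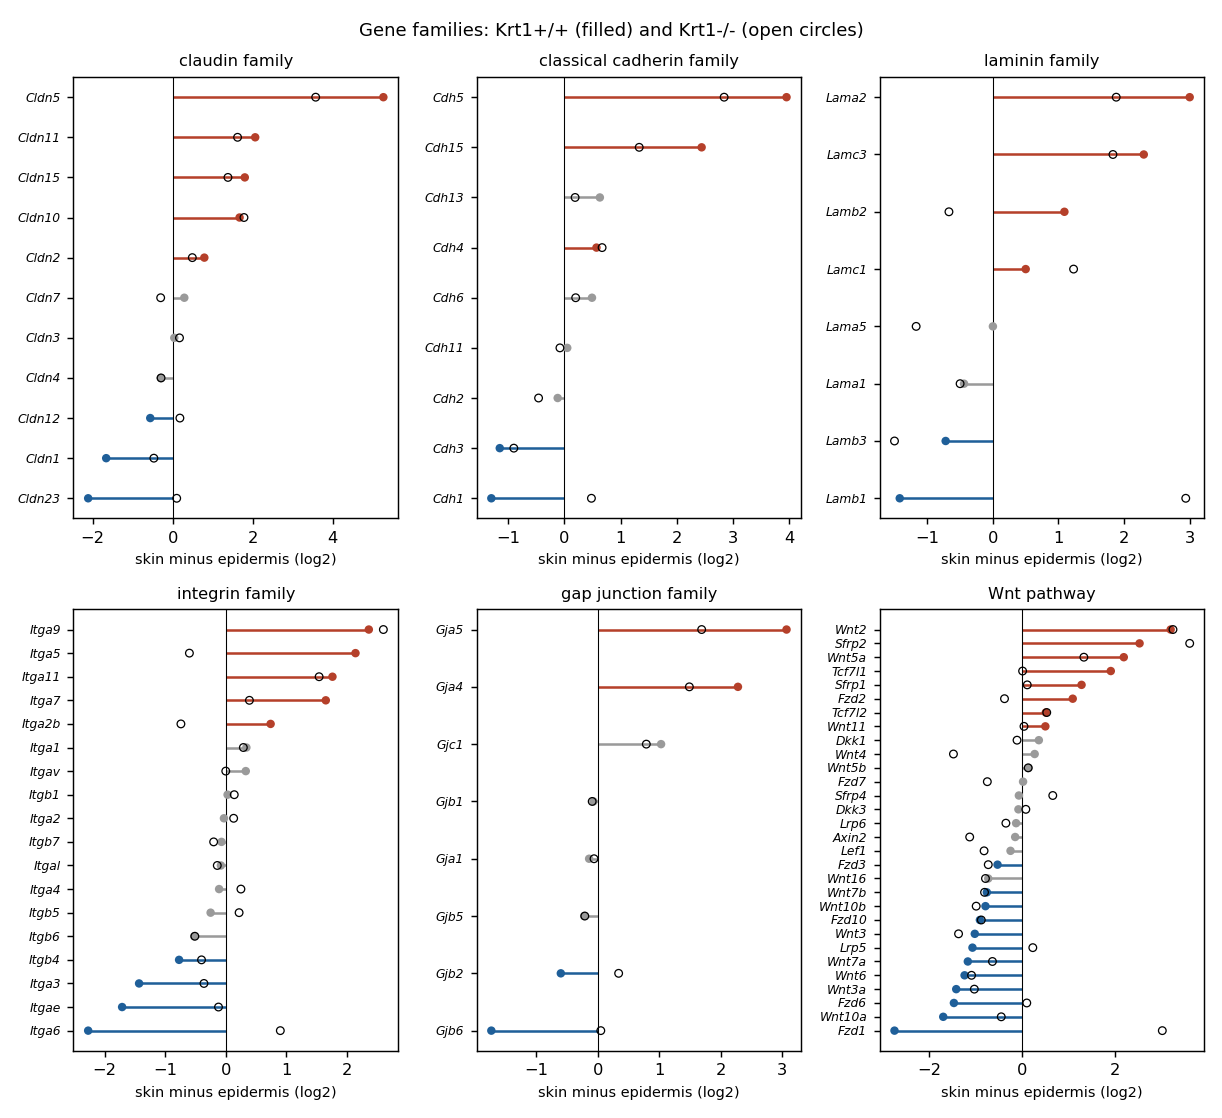
Difference of skin minus epidermis on the log2 scale (x axis) for the tested members of 6 gene families or pathways (y axis). Filled circles are Krt1+/+, red for higher, blue for lower and grey for not passing, and open circles are Krt1-/-. In each family members lie on both sides of 0, as with Cldn15 at 1.8 and Cldn1 at -1.66, and open circles follow the filled ones on the right more closely than on the left, where Lamb1 lies at -1.42 and 2.94.

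Of 25 genes of FGF, PDGF, VEGF and EGF signalling 8 were higher in skin, 6 lower and 11 did not pass, and on the Krt1-/- arrays 9 were higher and 8 lower. Fgf10 and Fgf7, growth factors that fibroblasts send to keratinocytes, were detected in skin alone, Fgf10 at 7.42, 7.86 and 8.07 and Fgf7 at 6.55, 6.09 and 6.43, and were at least 8.6-fold and 3.2-fold higher there (adjusted p = 3.3e-08 and 2.8e-06). Their receptor gene Fgfr2 did not pass (-0.13). In the reverse direction Pdgfa, the growth factor that keratinocytes send to Pdgfra-bearing fibroblasts, read 10.55, 10.52 and 10.64 in skin and 11.93, 11.67 and 11.58 in epidermis (difference -1.15, SE 0.19, adjusted p = 0.00025), and was lower in Krt1-/- skin too (-1.09, adjusted p = 0.00061). Pdgfc and Fgf22 were lower in both genotypes as well, and the ligands of the epidermal growth factor receptor Btc, Ereg and Epgn were lower in Krt1+/+ skin.

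Of 30 Wnt pathway genes 8 were higher and 12 lower, and on the Krt1-/- arrays 6 and 13. Among ligands Wnt2, Wnt5a and Wnt11 were higher in skin, Wnt5a with 8.76, 9.02 and 8.86 against 7.69, 6.38 and 5.98 (difference 2.19, SE 0.342, adjusted p = 0.00016). Wnt2 was detected in skin only, at 8.53, 5.75 and 8.27, the value of replicate 2 far below the others (at least 7.15-fold, adjusted p = 0.00019). Wnt3, Wnt3a, Wnt6, Wnt7a, Wnt7b, Wnt10a and Wnt10b were lower in skin, Wnt3a at 5.96, 6.71 and 6.34 against 7.46, 7.91 and 7.89 (difference -1.42, SE 0.327, adjusted p = 0.00329; -0.83 inside the last 6 columns, adjusted p = 0.0559). Of these 7 ligands 6 were also lower in Krt1-/- skin, Wnt10a (-0.45) not passing. The secreted Wnt inhibitor Sfrp2 was higher in the skin of both genotypes (2.53 and 3.61, adjusted p = 4.3e-06 and 6.3e-07).

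Growth genes of the fetal and newborn period formed a further group of the deeper tissue, with 16 of 18 insulin-like growth factor and imprinted genes higher, 1 lower and a median of 2.69. Dlk1, an imprinted membrane protein of immature mesenchyme and muscle, read 13.75, 13.5 and 13.8 in skin and 6.92, 6.14 and 6.74 in epidermis (difference 7.08, SE 0.576, adjusted p = 4e-07). Mest was detected in skin alone (at least 45.6-fold, adjusted p = 2.6e-08), and Cdkn1c, the imprinted inhibitor of the cell cycle, differed by 5.37 (adjusted p = 3.1e-08). Igf2, the fetal growth factor, was bright in both tissues, at 14.14, 13.96 and 14.28 against 12.76, 12.83 and 13.03, and differed by 1.26 (adjusted p = 4.2e-05). Igfbp2, a binding protein of these growth factors, was the exception: it read 6.91, 7.33 and 7.52 in skin and 8.73, 8.1 and 8.78 in epidermis (difference -1.28, SE 0.269, adjusted p = 0.00164) and was lower in Krt1-/- skin too (-1.51, adjusted p = 0.00071).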

How the data were processed

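RNA from newborn skin and epidermis was purified with Trizol and RNeasy columns and labelled as biotin cRNA with the Ambion MessageAmp kit, per the labels' protocols, and hybridised to 1-colour Illumina mouse bead arrays. The deposited table holds, per probe and array, an intensity that the authors did not normalize and a detection p-value, per the file headers, with no scanner or software named. A second deposited table of intensity values, normalized by the authors by a method not given in the sources used here, served as an alternative.

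Intensities of the 12 arrays were background-corrected and quantile-normalized with neqc (offset 16) of limma 3.58.1 in R 4.3.3 and are given as log2. Of 45281 probes 21712 had a detection p under 0.05 on at least 3 arrays. Of these 18687 had 1 gene name and 3025 had none or several. The kept probe with the highest mean stood for a gene (12099 genes, 4531 with further probes). Of all probes 34885 had 1 gene symbol, 18 several and 10378 none; 34807 symbols were matched to RefSeq by gene ID, 11 by accession, and 67 kept the annotation's name. Linear models of 4 groups (lmFit and eBayes, with 8 residual degrees of freedom and 5.39 more from the prior) gave each difference, with Benjamini-Hochberg adjustment over all genes, so the SE pools the spread of all 4 groups and can exceed that of the 2 compared. Array number limits precision. Fold bounds for genes undetected on all 3 arrays of a tissue use the lowest signal of detected probes, while list medians and plots use fitted differences unless bounds are named.

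Named genes were the 15 largest differences each way, the 10 brightest seen in only 1 tissue, list members, and the 5 largest genotype differences each way; list examples outside the order of size, and genes lower in both genotypes, were chosen after their values were seen. The members and lists were chosen with earlier results of these data known. No 2 arrays held identical values. Same-numbered samples did not deviate together (correlations 0.0473, -0.0837 and -0.0783), so replicate numbers were not treated as pairs. The fit was tested on simulated data of 12099 genes: it recovered 66% of 2-fold and 98% of 4-fold changes, with 6 false calls. Only 100 genes were changed at each fold there, whereas 41.7% of genes passed in the data. The simulated noise was independent and held no difference between column sets, so these figures do not speak to that limit. Promoter windows were searched with Python 3.11.15 in RefSeq sequences of GRCm38.p6.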

Additional observations from a re-analysis of the deposited data

Results flagged for a closer look

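The tissue difference itself differed between the genotypes, by limma's interaction test, in 3739 genes: it was more positive in Krt1+/+ in 1913 (15.8% of genes tested) and more negative in 1826 (15.1%). The genotypes have their tissues in opposite column sets, so genotype and column set cannot be told apart in any of these values.

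The 5 largest positive values, each the Krt1+/+ minus the Krt1-/- tissue difference in log2 units, were 6.42 for Selenow, 6.28 for Ptms, 5.37 for Bcat2, 5.03 for Rbp2 and 4.41 for Vat1. The 5 largest negative ones were -7.46 for Stfa3, -6.7 for Rpl22l1, -6.67 for Top2b, -6.54 for Lypla1 and -6.31 for Mxi1. Stfa3 is a protease inhibitor of the stefin family, Top2b a DNA topoisomerase and Rbp2 a retinol-binding protein.

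Genes among the largest falls in Krt1+/+ skin also carried such a difference. For inhibitors and other products of the epidermis it was -6.2 for Cstdc6, -5.96 for Spink5, -5.59 for Wfdc21, -4.82 for Anxa1 and -5.68 for Perp. For the others it was -5.29 for Mfsd14b, -6.2 for Cct5, -5.71 for Nkiras1, -5.13 for Pcna and -5.71 for Nono. Among genes seen in Krt1+/+ epidermis and not in Krt1+/+ skin it was -5.25 for Cd24a, -5.43 for Psmc6, -4.73 for Slc30a4, -4.21 for Rab27b, -4.29 for Ralgapa1, -4.17 for Fig4, -4.17 for Copb1, -3.22 for Gopc, -3.51 for Xrn2 and -3.32 for Slc35f5.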

How the results depend on the processing

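Counting each probe on its own gave 3412 higher and 4001 lower probes in Krt1+/+ skin, 3278 and 4447 in Krt1-/- skin and 6075 that differed between genotypes, since more features were tested. Requiring a difference above 1.5-fold gave 1113 higher and 938 lower in Krt1+/+, 973 and 398 in Krt1-/-, and 1471 between genotypes. Leaving out 1 Krt1+/+ array gave 1922 to 2198 higher and 2104 to 2444 lower genes, 2253 to 2366 and 2298 to 2516 in Krt1-/-, and 3119 to 3674 between genotypes. With the replicate block there were 2345 higher and 2612 lower genes, and it changed no call of the 96 genes followed through the settings. Without background correction the medians of muscle, dermal, vessel and fat genes fell to 2.26, 1.21, 1.6 and 1.29, with counts of 74, 78, 31 and 15 higher. Median centring moved the median of all genes to -0.25 and gave 1805 higher and 3813 lower (2008 and 2883 in Krt1-/-). In the average over both genotypes 2257 were higher (18.7%) and 2872 lower (23.7%), and Copb1, Fig4 and Ralgapa1 lost their calls.

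Direction turned for Tcf7l2 by the mean of its probes (-0.31). Inside the first 6 columns it turned for Lipn (0.31), Serpinb2 (0.93) and Tcf7l2 (-0.18), and 17 of the 96 genes lost their calls. Inside the last 6 it turned for Fig4 (0.13), Shh (0.37), Skint9 (0.44) and Wfdc21 (0.29), and 14 lost theirs. The cause was not tested. Signals below the detection limits of the arrays have no order.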

Other observations

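Hox genes, which record position along the body axis, differed in 7 of 21 tested in Krt1+/+, a smaller share than the 41.7% of all genes. The share was not smaller on the Krt1-/- arrays, where 6 of the 21 were higher and 7 lower, against 19.3% and 20.1% of all genes. Over both genotypes 6 were higher and 6 lower, against 18.7% and 23.7%. Hoxd9, Hoxd10 and Hoxd4 were higher in Krt1+/+ skin, Hoxd9 at 6.61, 6.27 and 6.58 and undetected in epidermis (at least 3.5-fold, adjusted p = 9.4e-07). Hoxa7, Hoxa2, Hoxa5 and Hoxb7 were lower, Hoxa7 at 7.38, 7.59 and 8.31 against 9.46, 9.09 and 9.4 (difference -1.56, adjusted p = 0.00211). All 7 passed in the same direction on the Krt1-/- arrays, with Hoxa5 at -1.19 and Hoxb7 at -0.96.

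Genes of general cell functions gave 21 of 160 higher and 42 lower in Krt1+/+ skin, against 19.8% and 22% of all genes. Of the 21 higher genes 5 passed as higher on the Krt1-/- arrays and 3 as lower. Of the 42 lower genes 3 passed there as lower and 17 as higher. By list, 1 of 44 ribosome genes was higher and 11 lower (5 and 11 on the Krt1-/- arrays). Of 39 respiratory chain genes 9 were higher and 8 lower (9 and 1 on the Krt1-/- arrays). Of 17 glycolysis genes 8 were higher and 2 lower (3 and 3 on the Krt1-/- arrays). Of 28 cell cycle genes 9 were lower in Krt1+/+ skin and 0 higher. In Krt1-/- skin 12 were lower and 1 higher, but these are mostly other genes. At most 3 of the 9 can be among the 12, since 3 of all 42 lower genes of general functions passed as lower there. Mcm6, of the replication helicase, read 8.7, 8.54 and 8.34 in skin and 11.72, 10.07 and 9.94 in epidermis (difference -2.05, adjusted p = 0.00203), where epidermis replicate 1 was the highest array. Of 15 heat shock genes 8 were lower in Krt1+/+ skin and 1 higher (Hmox1, of haem breakdown), but 0 were lower and 7 higher in Krt1-/- skin: Hspa1b, a stress-induced chaperone, differed by -3.68 and by 2.53. Notch pathway genes known from vessels, Hey1 and Notch4, were higher in the skin of both genotypes (Hey1 2.35 and 2.42, Notch4 2.25 and 2.58), while Jag1 and Notch1 were lower in Krt1+/+ skin (-1.67 and -0.85) and higher in Krt1-/- skin (1.83 and 1.04).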
